A study of Homo sapiens with 6 samples.

Results

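The CDKN1A and CPNE5 locus lies on band 6p21.2 of human chromosome 6. Its contacts were taken as every listed chromatin loop with either end overlapping chr6:36500000-36850000 of the hg19 build, a window of 350 kb around both genes. That rule gave 824 distinct loops of the 501157 listed over 6 HiChIP libraries. HiChIP joins DNA fragments that lie near each other in the nucleus and then pulls down those carrying a chosen protein or histone mark. Each loop joins a pair of regions, here called its anchors, and is counted by the paired-end tags (PETs) that link them. All libraries came from 1 stable line of G401 rhabdoid tumour cells in which SMARCB1 can be switched on by doxycycline, kept in serum free of tetracycline. The 3 groups held 2 libraries each: ARID1A HiChIP at day 3 in cells labelled SMARCB1 +/+, H3K27ac HiChIP at day 3 in cells with the same label, and H3K27ac HiChIP at day 0 in cells labelled SMARCB1 -/-. The day 3 cells had received doxycycline at 1 μg/ml. SMARCB1, doxycycline and time changed together between day 0 and day 3, so their effects cannot be told apart. The locus was selected on its H3K27ac loop counts, which differed between day 3 and day 0, so that difference is given as a description without a test.

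CDKN1A encodes p21, an inhibitor of cyclin-dependent kinases that holds cells in G1 and is a classical target of the p53 tumour suppressor. CPNE5 encodes a copine, one of a family of proteins that bind phospholipids in the presence of calcium. SMARCB1 and ARID1A are subunits of SWI/SNF, a complex that moves nucleosomes and opens enhancers and promoters. Loss of SMARCB1 defines most rhabdoid tumours, and its return to such cells is known to raise p21 and stop the cell cycle. H3K27ac is an acetyl mark found on active enhancers and promoters.

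In hg19 CDKN1A spans chr6:36644236-36655116 on the plus strand. CPNE5 spans chr6:36708555-36807797 on the minus strand, so that its start faces away from CDKN1A. The gene bodies are 53.4 kb apart and their starts 164 kb apart. In the gene order of RefSeq the genes between them are DINOL, a long non-coding RNA gene, RAB44, which is protein-coding, and the pseudogene GPR166P. PPIL1 and C6orf89 follow CPNE5. SRSF3 and STK38 lie on the other side of CDKN1A. At the starts of these hg19 gene bodies, the H3K27ac anchors of day 3 covered both starts, while the ARID1A anchors stopped short of each. The promoters below are windows of 300 bases around each start in RefSeq (GRCh38.p14). They lie at chr6:36678464-36678763 on the plus strand for CDKN1A and chr6:36839395-36839694 on the minus strand for CPNE5, where the first of 3 listed starts is given. Their spacing differs from the 164 kb between the hg19 starts, so they need not hold the same starts. The windows were not placed on hg19, and whether an anchor of either antibody covered the bases shown was not tested. Capitals mark matches to the GC box GGGCGG, or to its reverse complement CCGCCC.
CDKN1A promoter: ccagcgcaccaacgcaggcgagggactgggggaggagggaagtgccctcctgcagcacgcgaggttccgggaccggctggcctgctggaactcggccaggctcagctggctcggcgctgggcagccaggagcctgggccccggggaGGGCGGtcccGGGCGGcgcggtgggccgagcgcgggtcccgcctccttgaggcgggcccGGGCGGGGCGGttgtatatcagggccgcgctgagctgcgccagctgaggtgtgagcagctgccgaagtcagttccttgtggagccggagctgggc
CPNE5 promoter: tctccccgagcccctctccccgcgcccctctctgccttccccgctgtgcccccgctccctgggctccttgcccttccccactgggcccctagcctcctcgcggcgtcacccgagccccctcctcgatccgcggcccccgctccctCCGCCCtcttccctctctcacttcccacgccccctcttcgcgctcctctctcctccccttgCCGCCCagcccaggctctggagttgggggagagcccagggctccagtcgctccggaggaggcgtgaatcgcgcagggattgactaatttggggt
The CDKN1A promoter held 4 GC boxes, the last 2 of which overlap by 1 base, and the CPNE5 promoter held 2. A GC box was found in 45.0% of 35116 RefSeq promoters of the same length, searched on both strands. Neither promoter held the AP-1 motif TGANTCA (N is any base), which 7.71% of promoters held, or TATAAA, which 11.5% held. GC content was 74.3% for CDKN1A and 71.3% for CPNE5, against a median of 58.7% over all promoters. These matches describe the letters only.

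At its lower edge the window took in the anchor chr6:36511971-36518140, with 36.8 and 49.2 CPM with ARID1A, 51.7 and 60.1 CPM with H3K27ac at day 3, and 59.7 and 47.3 CPM with H3K27ac at day 0 (CPM, PETs scaled to a total of 1000000 per library). Just outside lay chr6:36434396-36439107, called with H3K27ac at day 3 alone, at 54.9 and 52.9 CPM. At the upper edge it took in the anchor chr6:36814376-36845342 upstream of CPNE5, while chr6:36852299-36857456 lay outside, with 131 and 184 CPM with ARID1A and 124 and 116 CPM with H3K27ac at day 3.

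The libraries listed 157578 and 164053 loops with ARID1A, 162010 and 162167 with H3K27ac at day 3, and 46677 and 44104 with H3K27ac at day 0. Listed PETs numbered 435210 and 467487 with ARID1A, 929128 and 982141 with H3K27ac at day 3, and 301703 and 253502 with H3K27ac at day 0. Contacts are therefore given also as CPM, the counts scaled to a total of 1000000 listed PETs in each library. The anchor lists of 2 replicates were 98.4% to 99.7% identical in position, as if 1 list had been made for each group. Where a group lacks an anchor, contacts were not measured, and no fold is given. The labels do not tell whether replicates were separate cultures. The p-values thus reflect the spread between the deposited libraries, and that spread may be technical.

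The number of loops in the window was 249 and 233 with ARID1A, 305 and 322 with H3K27ac at day 3, and 58 and 65 with H3K27ac at day 0. Window contacts stood at 1507 and 1536 CPM with ARID1A, 2322 and 2203 CPM with H3K27ac at day 3, and 832 and 789 CPM with H3K27ac at day 0. The 3 groups did not overlap on either measure. When every library was thinned to 253502 PETs, window loops numbered 183 and 167 with ARID1A, 171 and 173 with H3K27ac at day 3, and 53 and 65 with H3K27ac at day 0. The thinned ARID1A and day 3 H3K27ac counts overlapped, and the day 0 counts remained lowest. The ARID1A mean was 1522 ± 20.2 CPM and the day 3 H3K27ac mean 2262 ± 83.6 CPM (SD, n = 2 each), a log2 ratio of -0.57 with an exact two-sided permutation p of 0.333, the smallest that 2 libraries against 2 can give. This ratio turned to 0.08 when libraries were scaled by the PETs of loops whose anchors were called with both antibodies, so the direction of the window total between the antibodies depends on the scaling.

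Few of the day 3 anchors had a counterpart at day 0. ARID1A anchors numbered 14 and covered 46.9% of the window, day 3 H3K27ac anchors numbered 9 and covered 37.1%, and day 0 H3K27ac anchors numbered 5 and covered 11.7%. Merging the anchors of all groups wherever they shared a base gave 13 consensus anchors in the window. All 13 held an ARID1A anchor, 8 held a day 3 H3K27ac anchor and 4 held a day 0 H3K27ac anchor. The sets were nested: 5 consensus anchors were called with ARID1A alone, 4 with both antibodies at day 3 and not at day 0, and 4 in all groups. Over all 30001 consensus anchors of the genome the same patterns made up 43.9%, 21.7% and 19.3%.

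**Figure D1:**
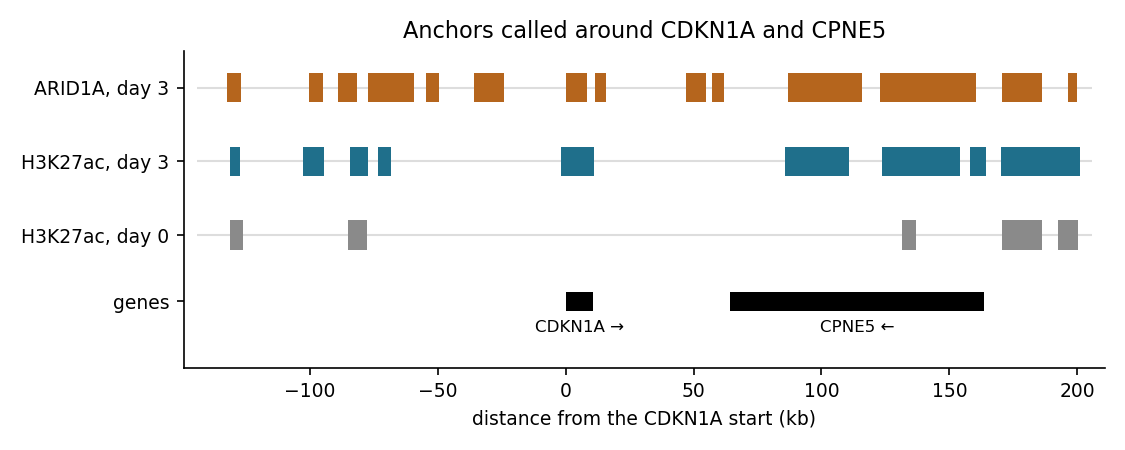
Anchors called in each group (coloured boxes) along the window, as distance in kb from the CDKN1A start, with the gene bodies in black and arrows for their strand. CDKN1A has an anchor in both day 3 groups and none at day 0, and CPNE5 has 2 anchors with ARID1A, 3 with H3K27ac at day 3 and 1 with H3K27ac at day 0.

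CDKN1A itself carried an anchor with either antibody at day 3, and no anchor with H3K27ac at day 0. The ARID1A anchor, chr6:36644414-36652671, began 178 bp downstream of the start of the hg19 gene body and covered 75.9% of that body. The day 3 H3K27ac anchor, chr6:36642252-36655298, covered the start and the whole body. A second ARID1A anchor, chr6:36655696-36660162, lay 580 bp past the end of the gene, where no H3K27ac anchor was called. For day 0 the contacts of CDKN1A were not measured, so neither a gain nor a fold can be given for this gene.

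The CDKN1A anchor joined 54 and 53 PETs with ARID1A, against 169 and 184 PETs with H3K27ac at day 3. They were spread over 22 and 23 loops with ARID1A, and over 40 and 41 loops with H3K27ac. Scaled to the library total this made 124 and 113 CPM with ARID1A, and 182 and 187 CPM with H3K27ac. The 2 antibodies did not overlap in any of these measures. The means were 119 ± 7.57 CPM with ARID1A and 185 ± 3.86 CPM with H3K27ac (SD, n = 2 each), a log2 ratio of -0.64 (exact permutation p = 0.333). The difference depended on how the gene and the total were defined: the log2 ratio was 0.01 when scaled by loops between anchors called with both antibodies, and 0.02 when 10 kb were added on either side of the gene, which takes in the second ARID1A anchor. It was -1.42 over loops with both anchors called with both antibodies, and -2.30 over loops with a deposited value of 0.01 or less. Per kb of called anchor the values overlapped, at 15.0 and 13.7 CPM per kb with ARID1A against 13.9 and 14.4 CPM per kb with H3K27ac. Among all anchors of its library the CDKN1A anchor ranked at percentiles 83.6 and 81.5 with ARID1A, and at 84.2 and 84.7 with H3K27ac.

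**Figure D2:**
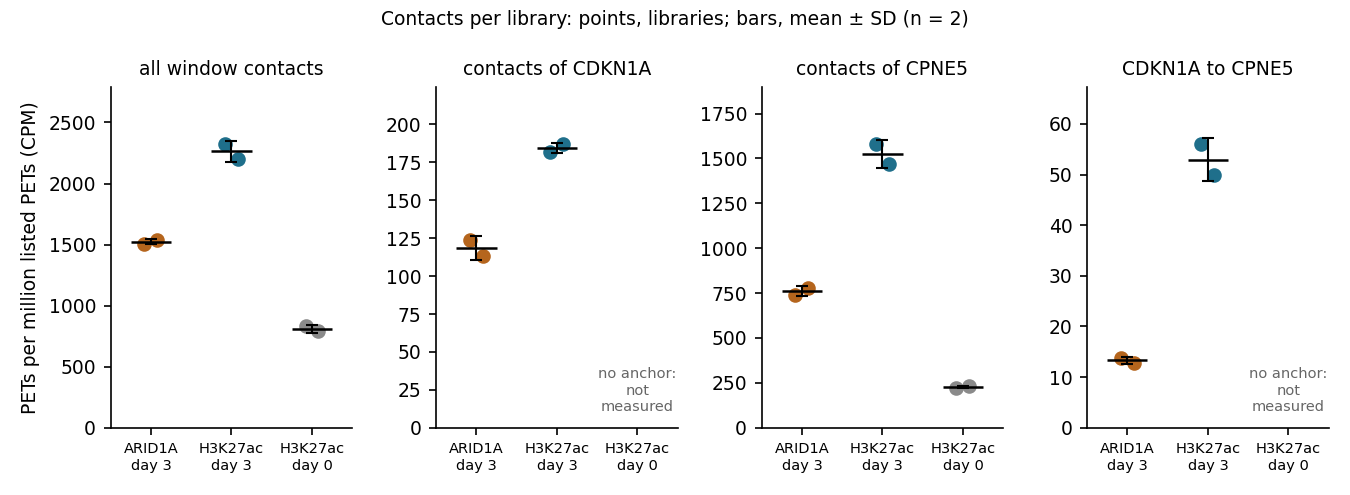
Contacts per library in CPM (y axes from 0) for the whole window, CDKN1A, CPNE5 and the loops joining both genes; points are libraries, bars the mean ± SD (n = 2). In CPM each of the 4 quantities is lower with ARID1A than with H3K27ac at day 3, an order that another scaling turned for the window and CDKN1A; CDKN1A was not measured at day 0.

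Over all listed loops the CDKN1A anchor reached nearer regions with ARID1A than with H3K27ac, but the anchor lists differed. ARID1A partners at 9.15, 34.5 and 56.7 kb had no H3K27ac anchor, so H3K27ac contacts there were not measured. Of the ARID1A PETs, 46.3% and 49.1% went to anchors not called with H3K27ac. Spans over partners called with both antibodies were not compared. The median span of the CDKN1A contacts, weighted by PETs, was 72.5 and 97.0 kb with ARID1A, against 181 and 181 kb with H3K27ac at day 3. Its longest loops spanned 1306 and 1711 kb with ARID1A, and 1792 and 1959 kb with H3K27ac. Over all loops the median spans were 82.9 and 83.2 kb with ARID1A and 101 and 99.9 kb with H3K27ac. The share of PETs that went to lower coordinates, away from CPNE5, was 42.6% (95% Wilson interval 30.3% to 55.8%) and 49.1% (36.1% to 62.1%) with ARID1A. With H3K27ac this share was 36.7% (29.8% to 44.2%) and 37.5% (30.8% to 44.7%). The intervals overlapped. All such intervals cover counting error only, since PETs are not independent molecules.

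The antibodies shared part of the CDKN1A partners. ARID1A joined CDKN1A to 30 consensus anchors and H3K27ac at day 3 to 46, with 18 in common, which is 60.0% of the ARID1A partners and 39.1% of the H3K27ac partners. Between replicates the shared partners made up 63.2% and 52.2% of the ARID1A lists and 81.1% and 76.9% of the H3K27ac lists. Of the 12 partners of ARID1A alone, 4 lay where H3K27ac also had an anchor, and of the 28 partners of H3K27ac alone, 20 lay where ARID1A also had one. Of the CDKN1A PETs, 46.3% and 49.1% with ARID1A went to anchors not called with H3K27ac, against 10.1% and 9.78% of the H3K27ac PETs that went to anchors not called with ARID1A. The strongest single ARID1A partner was the second anchor just past the gene, with 8 and 8 PETs. Next came the anchor 68.2 kb before the CDKN1A start, with 6 and 5 PETs, which was called with both antibodies. The anchors 52.1 kb before the start, with 6 and 4 PETs, and 29.9 kb before it, with 4 and 5 PETs, were not called with H3K27ac.

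Partners called with both antibodies moved in both directions. The anchor 68.2 kb before the CDKN1A start (chr6:36566979-36585082) was joined to CDKN1A by 6 and 5 PETs with ARID1A and by 3 and 5 PETs with H3K27ac at day 3, although the H3K27ac libraries held more PETs in all. The anchor beside it, 83.1 kb before the start (chr6:36555368-36566979), was joined to CDKN1A by 1 and 0 PETs with ARID1A and by 12 and 17 PETs with H3K27ac. For this second pair the ratio of H3K27ac to ARID1A in CPM was 13.7, with an exact 95% counting interval of 2.27 to 559. These 2 neighbouring regions, which abut once merged, thus stood in opposite order with the 2 antibodies. As called, the anchors did not abut with either antibody. The region 68.2 kb before the start held 18103 bp of called anchor with ARID1A and 4942 bp with H3K27ac. Both regions were picked out after their values were seen.

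**Figure D3:**
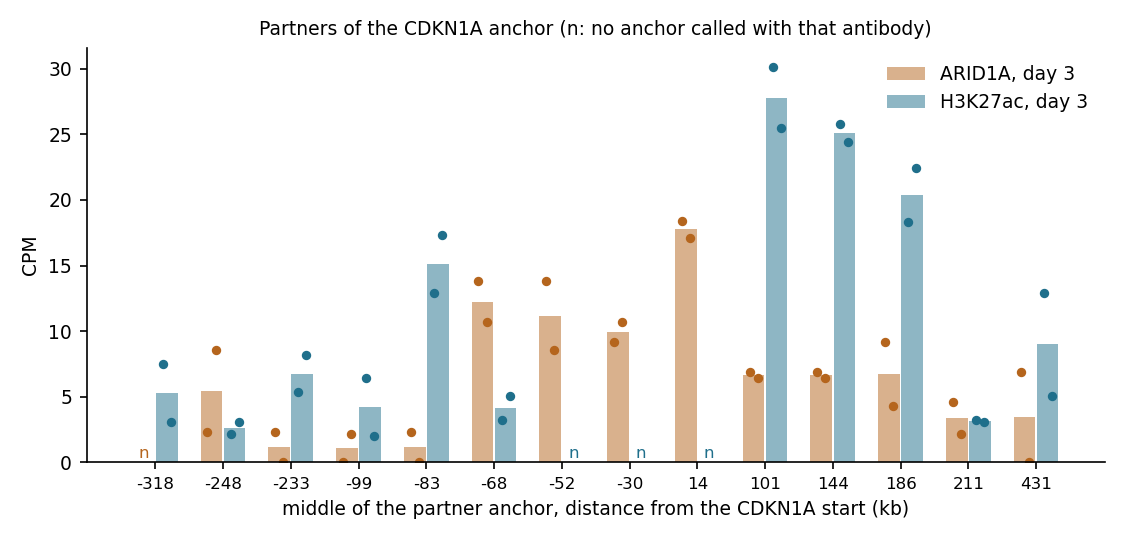
Contacts of the CDKN1A anchor at day 3 with the 14 partners that had the most PETs, ordered by the distance of the partner from the CDKN1A start in kb (x axis); bars are group means in CPM, points are libraries, and n marks a partner with no anchor called with that antibody. H3K27ac bars are tallest at the 3 partners on and upstream of CPNE5 (101, 144 and 186 kb), and ARID1A bars at partners within 70 kb of the gene.

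With H3K27ac the partner anchors of CDKN1A that held the most PETs lay on CPNE5. Loops joining both genes held 6 and 6 PETs (13.8 and 12.8 CPM) with ARID1A, against 52 and 49 PETs (56.0 and 49.9 CPM) with H3K27ac at day 3. The means were 13.3 ± 0.673 CPM with ARID1A and 52.9 ± 4.30 CPM with H3K27ac (SD, n = 2 each), a log2 ratio of -1.99 (exact permutation p = 0.333). The direction held under each alternative that gave a value. With 10 kb added to either side of the genes the log2 ratio was -0.49, since that takes in ARID1A anchors between the genes. CPNE5 took 11.1% (95% Wilson interval 5.19% to 22.2%) and 11.3% (5.29% to 22.6%) of the CDKN1A PETs with ARID1A. It took 30.8% (24.3% to 38.1%) and 26.6% (20.8% to 33.4%) with H3K27ac. Between anchors called with both antibodies the shares were 20.7% (9.85% to 38.4%) and 22.2% (10.6% to 40.8%) with ARID1A, against 34.2% (27.1% to 42.1%) and 29.5% (23.1% to 36.9%) with H3K27ac. The intervals of the 2 antibodies overlapped in part in either set, and the difference in share was not tested.

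The 3 partners of CDKN1A with the most H3K27ac PETs lay on or upstream of CPNE5. The anchor in the middle of CPNE5 (chr6:36729940-36759985) was joined to CDKN1A by 3 and 3 PETs with ARID1A and by 28 and 25 with H3K27ac at day 3, over 96.2 kb. The anchor over the 5′ part of CPNE5 (chr6:36767250-36808490) was joined to CDKN1A by 3 and 3 PETs with ARID1A and by 24 and 24 with H3K27ac, over 139 kb. The anchor upstream of CPNE5 (chr6:36814376-36845342) was joined to CDKN1A by 4 and 2 PETs with ARID1A and by 17 and 22 with H3K27ac, over 181 kb. The H3K27ac libraries held more PETs at each of the 3. Replicates lay close together at the 2 CPNE5 anchors, while the upstream anchor had 4 PETs in one ARID1A library and 2 in the other. Farther out, chr6:37054171-37096559 was joined to CDKN1A over 427 kb by 3 and 0 PETs with ARID1A and by 12 and 5 with H3K27ac, so that replicates differed within either antibody.

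CPNE5 held more contacts than CDKN1A in each group where both were measured, over more called anchor. With ARID1A, anchors covered 66.3 kb of CPNE5 and 8.26 kb of CDKN1A. Per kb of called anchor, ARID1A gave 13.2 to 14.1 CPM on CPNE5, and 15.0 and 13.7 CPM on CDKN1A. Per kb, H3K27ac at day 3 gave 24.9 to 52.8 CPM on CPNE5, and 13.9 and 14.4 CPM on CDKN1A. The CPNE5 anchors joined 323 and 365 PETs (742 and 781 CPM) with ARID1A. With H3K27ac they joined 1467 and 1442 PETs (1579 and 1468 CPM) at day 3, and 67 and 59 PETs (222 and 233 CPM) at day 0. The 3 groups did not overlap. Between antibodies at day 3 the means were 761 ± 27.3 CPM with ARID1A and 1524 ± 78.3 CPM with H3K27ac (SD, n = 2 each), so that H3K27ac was 2.00 times ARID1A (exact permutation p = 0.333). With H3K27ac the mean was 1524 ± 78.3 CPM at day 3 and 227 ± 7.54 CPM at day 0 (SD, n = 2 each). Their ratio was 6.70, or 2.74 on the log2 scale. Over loops whose anchors were called at both times that log2 ratio was 1.68. For the whole window the day 3 to day 0 log2 ratio was 1.48, and 0.28 over loops with anchors called at both times, so most of the window's difference lay outside the loops that could be listed at both times.

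**Figure D4:**
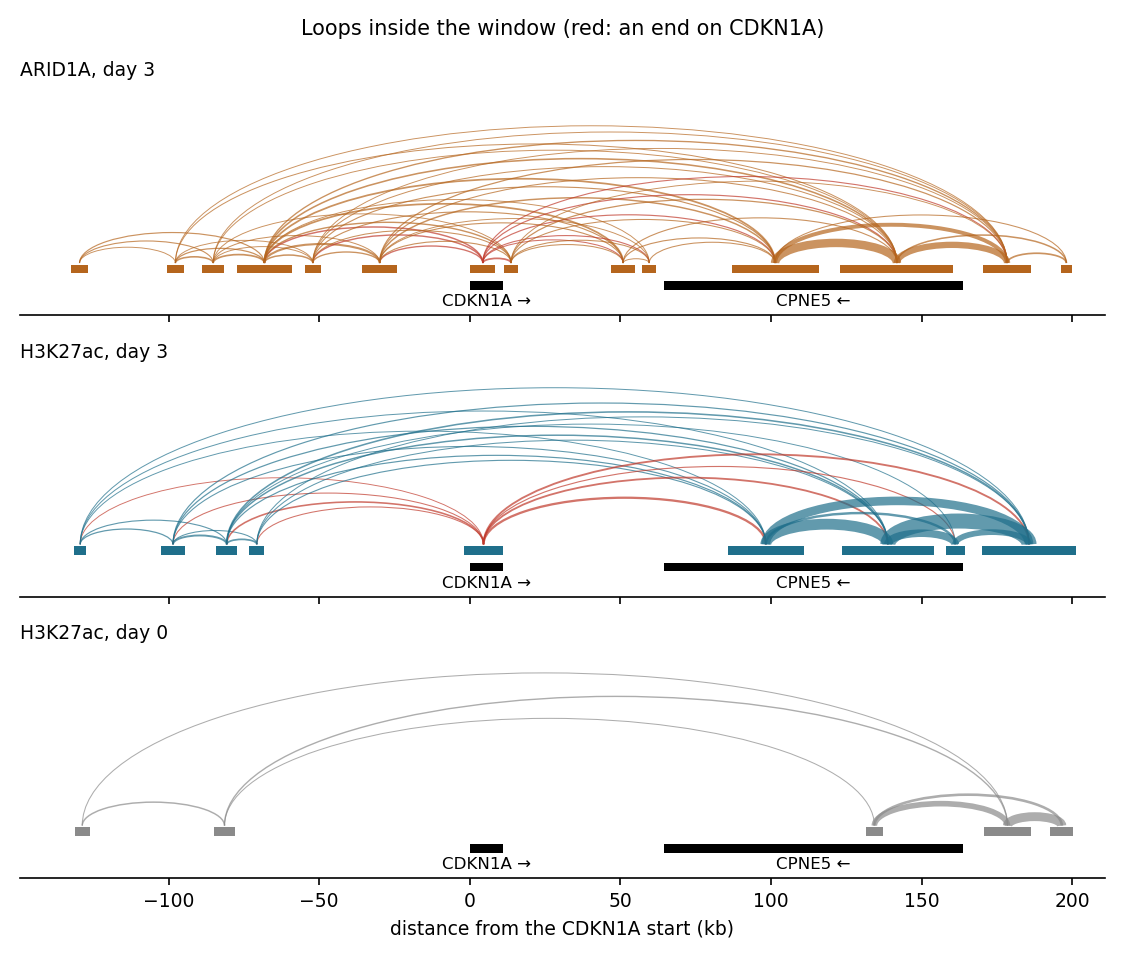
Loops with both ends in the window and a mean of 2 CPM or more, drawn as arcs whose thickness grows with the mean CPM of the group's 2 libraries and whose height grows with distance, over the anchors (coloured boxes) and genes (black); the x axis is distance from the CDKN1A start in kb. The thickest arcs join the CPNE5 anchors to each other and to the anchor upstream of the gene at day 3, and arcs from CDKN1A (red) are present in the day 3 panels only, since no day 0 anchor lay on that gene.

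The anchors on CPNE5 differed in number and width between the groups. The day 3 H3K27ac anchor chr6:36802207-36808490 covered the CPNE5 start, with 308 and 316 PETs. The ARID1A anchor over the 5′ part, chr6:36767250-36804748, ended 3049 bp short of the start, with 215 and 247 PETs. The only day 0 anchor on the gene was chr6:36775792-36781257, which lay inside the body and had 67 and 59 PETs. Anchors covered 66.8% of the CPNE5 body with ARID1A, 61.7% with H3K27ac at day 3 and 5.51% with H3K27ac at day 0. Per kb of called anchor, the anchor at the CPNE5 start had 52.8 and 51.2 CPM per kb at day 3, and the day 0 anchor inside the body had 40.6 and 42.6 CPM per kb. The other 2 day 3 H3K27ac anchors on the gene lay at 24.9 to 30.4 CPM per kb, and the 2 ARID1A anchors at 13.2 to 14.1 CPM per kb. The day 3 anchor that contains the day 0 anchor, chr6:36767744-36798256, had 30.4 and 28.7 CPM per kb, below the day 0 values. In total that anchor had 928 and 875 CPM, above the 222 and 233 CPM of the day 0 anchor. At that place contacts per kb and total contacts thus stood in opposite order between the times.

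Contacts between anchors of the gene itself made up part of the CPNE5 total. Loops between CPNE5 anchors held 60 and 72 PETs with ARID1A, which is 18.6% (95% Wilson interval 14.7% to 23.2%) and 19.7% (16.0% to 24.1%) of the CPNE5 PETs. They held 324 and 346 PETs with H3K27ac at day 3, or 22.1% (20.0% to 24.3%) and 24.0% (21.9% to 26.3%). The shares were lower in both ARID1A libraries, with overlapping intervals. With a single anchor at day 0, no such loop could be listed there. CPNE5 PETs that left the gene went mostly to higher coordinates, away from CDKN1A: the share to lower coordinates was 27.8% and 25.6% with ARID1A, 21.5% and 20.8% with H3K27ac at day 3, and 7.46% and 10.2% with H3K27ac at day 0.

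Of the 4 window anchors called at both times, the one on CPNE5 had the highest ratio of H3K27ac contacts. The ratio of day 3 to day 0 CPM was 4.26 for the anchor over the 5′ part of CPNE5, 2.34 for the anchor 83.1 kb before the CDKN1A start, 1.95 for the anchor upstream of CPNE5, and 1.04 for the anchor 129.2 kb before CDKN1A. Over 6697 consensus anchors called at both times the median ratio was 0.998, with quartiles of 0.706 and 1.54. The called width differed as well: the ratio of day 3 to day 0 width was 6.73 for the 5′ part of CPNE5, 0.958 for the anchor 83.1 kb before CDKN1A, 1.33 upstream of CPNE5 and 0.806 for the anchor 129.2 kb before CDKN1A. The part of anchor width in the CPNE5 ratio was not tested.

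Loops of 2 neighbouring anchors to the same partners differed in direction between the times at most of these partners, a pattern singled out after its values were seen. Of the window loops whose anchors were called at both times, 21 had 4 or more PETs in at least 2 of the 4 H3K27ac libraries, and 8 of these ended on CPNE5. Of the 8, 7 had a higher mean CPM at day 3 than at day 0, and the other had no PET at day 0. The limit was on raw PETs and the day 3 libraries were deeper, so a loop could pass through day 3 alone. Of the 8, only the loops to the upstream anchor and to chr6:37054171-37096559 had 4 or more PETs in both day 0 libraries. The higher values at day 3 on CPNE5 thus lean the way of the limit. Of the 13 without an end on CPNE5, 3 were higher at day 3 and 10 were lower, with a median ratio of 0.701. Under the same limit on PETs the median was 0.742 over 16220 loops of the genome. With the limit set instead at 10 PETs summed over all 6 libraries, a limit chosen after the data were seen, there were 27 such window loops. That limit too was on raw PETs and leans toward the deeper day 3 libraries. Of the 11 on CPNE5, 8 were then higher at day 3, 2 were lower and 1 had no PET at day 0, and of the 16 others 3 were higher and 13 lower, with a median ratio of 0.653. In that wider set the anchor over the 5′ part of CPNE5 and the anchor upstream of it shared 9 partners. At 6 of these the mean was higher at day 3 on CPNE5 and lower at day 3 on the upstream anchor, at 1 it was higher on both, at 1 it was lower on both, and at 1 it was lower on CPNE5 and higher on the upstream anchor. To chr6:36948134-36956329 the anchor upstream of CPNE5 sent 30 and 33 PETs (32.3 and 33.6 CPM) at day 3, against 23 and 23 PETs (76.2 and 90.7 CPM) at day 0, a ratio of 0.395. To the same partner the anchor on CPNE5 sent 23 and 25 PETs (24.8 and 25.5 CPM) at day 3, against 6 and 1 PETs (19.9 and 3.94 CPM) at day 0, a ratio of 2.11. The partner chr6:37132953-37145945 gave ratios of 0.458 for the upstream anchor and 2.14 for CPNE5, and chr6:37512258-37540474 gave 0.724 for the upstream anchor and 2.84 for CPNE5. At chr6:37054171-37096559 the ratio was 0.713 for the upstream anchor and 1.71 for CPNE5, where the day 0 replicates themselves differed, with 13.3 and 47.3 CPM. At chr6:37012627-37031849 it was 0.944 for the upstream anchor, and the loop to CPNE5 held 23 and 18 PETs at day 3, against 1 and 0 at day 0. At chr6:35432572-35473362 it was 0.468 for the upstream anchor, and the loop to CPNE5 held 11 and 11 PETs at day 3, with no PET in either day 0 library. The other 3 partners did not follow this order. At chr6:36555368-36566979 the ratio was 1.35 for the upstream anchor and 4.17 for CPNE5, at chr6:37034892-37042530 it was 0.701 for the upstream anchor and 0.776 for CPNE5, and at chr6:36406436-36415180 it was 1.06 for the upstream anchor and 0.809 for CPNE5. These loops share anchors and libraries, so they are not independent of each other, and the day 0 values for CPNE5 and these partners rest on 0 to 12 PETs each. The called width of day 3 over day 0 was 6.73 for the anchor on CPNE5 and 1.33 for the upstream anchor. The part of these unequal widths in the pattern was not tested.

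**Figure D5:**
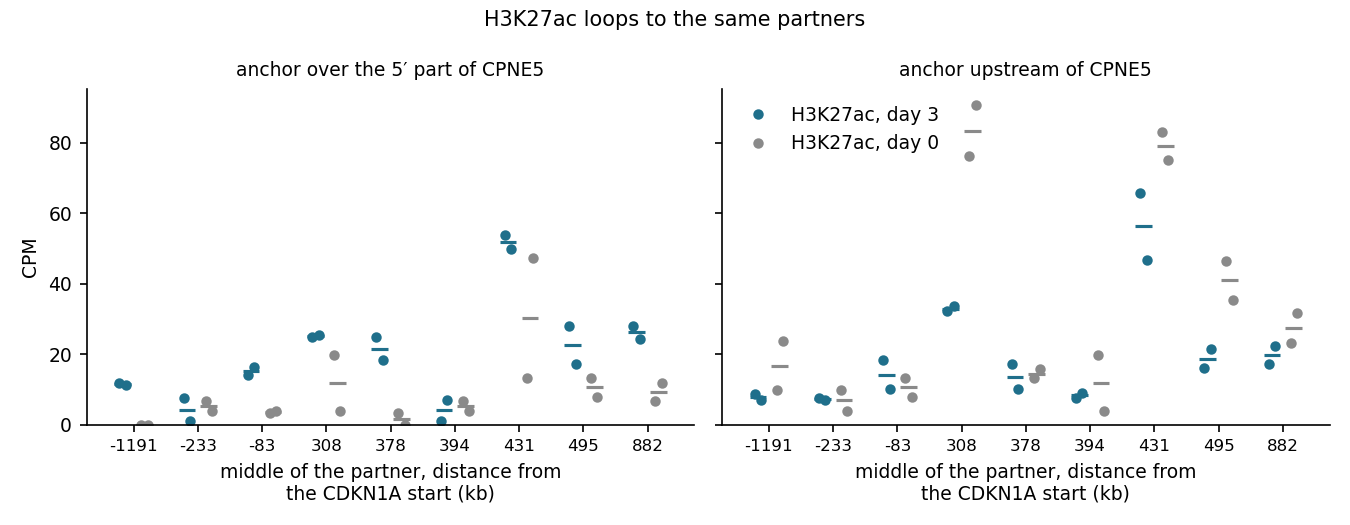
H3K27ac contacts in CPM of the anchor over the 5′ part of CPNE5 (left) and of the anchor upstream of CPNE5 (right) with the 9 partners they share, placed by their distance from the CDKN1A start in kb and listed if both loops had 10 or more PETs over the 6 libraries; points are libraries, lines are group means. On the left the day 3 mean is above the day 0 mean at 7 partners and below it at -233 and 394 kb, and on the right it is below at 7 and above it at -233 and -83 kb. The called width of day 3 over day 0 was 6.73 for the left anchor and 1.33 for the right.

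The loop with the most PETs in the window joined the 5′ part of CPNE5 to the anchor upstream of the gene, over 42.0 kb. It held 56 and 51 PETs (129 and 109 CPM) with ARID1A, 361 and 337 PETs (389 and 343 CPM) with H3K27ac at day 3, and 40 and 30 PETs (133 and 118 CPM) with H3K27ac at day 0. ARID1A at day 3 and H3K27ac at day 0 overlapped in CPM, and H3K27ac at day 3 was above both, by 2.92 times over day 0. Next came the loop between the middle and the 5′ part of CPNE5, over 42.9 kb, with 60 and 72 PETs with ARID1A and 213 and 210 with H3K27ac at day 3. The upstream region was 1 anchor of 30966 bp with H3K27ac at day 3, and 2 anchors each with ARID1A and with H3K27ac at day 0. Those 2 day 0 anchors, chr6:36814945-36830459 and chr6:36836864-36844623, were joined to each other by 50 and 36 PETs, which fall inside 1 anchor at day 3 and so could not be listed there.

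ARID1A and H3K27ac at day 3 were tested against each other with edgeR's quasi-likelihood test, over all consensus regions of the genome called with both antibodies, with Benjamini-Hochberg adjustment over all of them. The day 3 H3K27ac libraries are among those that chose the locus, whose H3K27ac counts were higher at day 3, so that a call lower with ARID1A leans the way of that choice and its p-value is not independent support. Folds are ARID1A over H3K27ac and are scaled by the PETs of the tested set, which is smaller than the library totals behind CPM, so they are not on the scale of the CPM ratios. Of 8 consensus anchors tested in the window, 1 was called higher with ARID1A and 5 lower at an adjusted p under 0.05. Over the genome 64.0% of 11052 anchors were called, 31.5% higher and 32.5% lower. In the window 75.0% were called in either direction, near the share of all anchors. By direction the window shares were 12.5% higher and 62.5% lower, over only 8 anchors, which share loops. The median log2 fold change was -0.38 for the window anchors and -0.05 for all anchors.

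The CDKN1A anchor was called lower with ARID1A. Over the tested set it held 29 and 27 PETs with ARID1A and 152 and 166 with H3K27ac at day 3, a log2 fold change of -0.81 ± 0.20 (SE, edgeR adjusted p = 1.42e-04). Its called width with ARID1A was 0.633 times that with H3K27ac. The anchor upstream of CPNE5 was likewise lower, with 146 and 128 PETs with ARID1A and 818 and 774 with H3K27ac, a log2 fold change of -0.84 ± 0.09 (edgeR adjusted p = 4.77e-19) at a width ratio of 0.624. The anchor 68.2 kb before the CDKN1A start was the 1 called higher, with 61 and 75 PETs with ARID1A and 54 and 68 with H3K27ac, a log2 fold change of 1.85 ± 0.19 (edgeR adjusted p = 1.63e-21) at a width ratio of 3.66. In these 3 anchors the width ratio lay on the same side of 1 as the fold, and the part of width in the folds was not tested in them.

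3 anchors called lower had similar widths with both antibodies. The anchor over the 5′ part of CPNE5, at a width ratio of 1.02, had a log2 fold change of -0.44 ± 0.08 (edgeR adjusted p = 2.62e-07), and the anchor in the middle of CPNE5, at 1.15, had -0.26 ± 0.10 (edgeR adjusted p = 0.0134). Both turned to positive values, 0.13 and 0.15 with adjusted p of 0.349 and 0.319, when loops to anchors of differing width were left out, so no direction of these 2 anchors held across the settings of this fit. The anchor 83.1 kb before CDKN1A, at 1.07, had -0.54 ± 0.19 (edgeR adjusted p = 0.00918) and lost its call in that setting, at an adjusted p of 0.633. Its similar width hides a shift in position: chr6:36555368-36562733 with ARID1A and chr6:36560090-36566979 with H3K27ac at day 3 overlap only in part. The fold of this anchor thus compares partly different sequence. The call of this anchor and that of the middle of CPNE5 were also lost without either ARID1A library, which left 3 anchors called lower. The 2 anchors farthest from CDKN1A on that side did not pass: the anchor 98.5 kb before its start, at a width ratio of 0.686, had -0.33 ± 0.23 (edgeR adjusted p = 0.212), and the anchor 129.2 kb before it, at 1.31, had 0.15 ± 0.29 (edgeR adjusted p = 0.659), a sign that turned in 3 alternatives.

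Of 75 loops tested in the window, 9 were called higher with ARID1A and 11 lower, and without any 1 library 2 to 4 were called higher and 3 to 4 lower. The background over 28338 loops was 33.3% called, 14.6% higher and 18.7% lower, and the window's share was 26.7%. The median log2 fold change was -0.74 in the window and -0.49 over all loops. The filter asked for 4 or more raw PETs in 2 libraries, so a loop could pass through the deeper H3K27ac libraries alone. Without H3K27ac replicate 1 or 2, 29 and 30 window loops were tested, with a median of 0.00 and 0.03 over all loops. Without ARID1A replicate 1 or 2, 72 and 73 were tested, with a median of -0.54 and -0.53. The medians thus depend on the filter, and calls lower with ARID1A lean its way. 5 of the 9 higher loops ended on the anchor 68.2 kb before CDKN1A, among them its loop to CDKN1A, with a log2 fold change of 2.06 ± 0.71 (edgeR adjusted p = 0.0158), and its loop to chr6:36387630-36405353, with 9 and 13 PETs with ARID1A and 3 and 4 with H3K27ac at day 3 (3.24 ± 0.61, edgeR adjusted p = 2.37e-06). Of the 11 lower loops, 4 had no PET in either ARID1A library. These 4 passed the filter through H3K27ac alone and are given without a fold. The other lower loops also passed through H3K27ac alone, except those from upstream of CPNE5 to its middle and its 5′ part. Calls of loops that passed in this way are not independent support.

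The loop between the 5′ part of CPNE5 and the anchor upstream of it was lower with ARID1A by the smallest adjusted p in the window, with a log2 fold change of -1.05 ± 0.16 (edgeR adjusted p = 2.58e-09). The loop between the middle and the 5′ part of CPNE5 had a log2 fold change of -0.02 ± 0.16 (edgeR adjusted p = 0.919), a sign that turned in 4 alternatives. Its log2 fold change was -0.45 without H3K27ac replicate 1 and -0.53 without replicate 2, so its size depended on the H3K27ac libraries used. The loop from the upstream anchor to chr6:37054171-37096559 had the next smallest adjusted p, with 3 and 2 PETs with ARID1A, against 61 and 46 with H3K27ac at day 3 (-2.73 ± 0.47, edgeR adjusted p = 2.80e-07). It passed the filter on PETs through H3K27ac alone, so its p-value is not independent support. From the 5′ part of CPNE5 to the same partner, ARID1A listed 10 and 14 PETs and H3K27ac 50 and 49, so that with ARID1A this partner was joined mainly to CPNE5. The loop from the 5′ part of CPNE5 to chr6:37512258-37540474 had 0 and 1 PETs with ARID1A and 26 and 24 with H3K27ac, called at an edgeR adjusted p of 1.23e-04. Its ratio of H3K27ac to ARID1A in CPM was 23.6, with an exact 95% counting interval of 4.05 to 951. That loop too passed the filter through H3K27ac alone. CDKN1A was joined to that same distant anchor by 0 and 0 PETs with ARID1A and by 5 and 4 with H3K27ac, which did not pass at an edgeR adjusted p of 0.0681.

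Of the loops between CDKN1A and CPNE5, the one to the middle of CPNE5 was called, with a log2 fold change of -1.47 ± 0.55 (edgeR adjusted p = 0.0271), and the one to the 5′ part had -1.33 ± 0.56 and missed the threshold (edgeR adjusted p = 0.0541). Each held 3 and 3 PETs with ARID1A and passed the filter through H3K27ac alone. Neither could be tested without one of the H3K27ac libraries, and the call is not independent support. The call was lost without ARID1A replicate 1 (adjusted p = 0.151), without ARID1A replicate 2 (0.188), with DESeq2 (0.166), with the replicate number as a block (0.0705) and with no filter on low counts (0.245). The log2 fold change stayed negative in each of these. With edgeR, 0 window loops were called in either direction over the 32 loops with both anchors of similar width, where 2 had an unadjusted p under 0.05. With no filter 0 of 287 window loops and 1 loop in the whole genome were called, and 42 window loops had an unadjusted p under 0.05. DESeq2 called 3 window loops higher and 3 lower over the 75 loops.

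By the level of its contacts over the 4 libraries of day 3, the CDKN1A anchor was most like chr1:25578617-25590002, chr19:13899242-13911300 and chr6:37662374-37679159 among 6512 consensus anchors elsewhere that were called with both antibodies at day 3 and not at day 0. Likeness was the Euclidean distance of log2(CPM + 1), at 0.124, 0.145 and 0.180. The first of these had 129 and 116 CPM with ARID1A and 175 and 175 CPM with H3K27ac at day 3, next to the 124 and 113 CPM and the 182 and 187 CPM of CDKN1A. No gene is named for these regions, for want of an hg19 annotation in the sources used here.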

How the data were processed

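HiChIP loops of 6 libraries were analysed. Per the submitters' processing notes, HiC-Pro, Bowtie2 and hg19 were used; which programs called anchors and loops is not given in the sources used here. By its values, each deposited file gives 2 anchors a line, a raw count of PETs and, in a last column without a header, a value from 0 to 1. The deposited value has the range of a p-value, but its kind, raw or adjusted, is not stated; it served only as a threshold of 0.01 in an alternative. The lowest count listed was 1, and spans ran from 5.00 to 2000.0 kb. Coordinates are as deposited; their first base, 0 or 1, is not stated.

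A loop belonged to a gene if an anchor overlapped the gene body by 1 bp. The 51970 distinct anchors were merged into 30001 consensus anchors and 348566 consensus loops with Python 3.11.15 and pandas 2.3.3; loops within 1 consensus anchor were left out, and an unlisted loop between called anchors counted as 0. edgeR 4.0.16 (R 4.3.3, TMM) tested anchors with 10 or more and loops with 4 or more PETs in at least 2 libraries. The scripts were tested on simulated data. Depth, 253502 to 982141 listed PETs per library, limits loops of few PETs. Alternatives were each replicate left out, other scalings, DESeq2 1.42.0, no filter, a replicate block, other sets of regions, fixed bins, the deposited value and thinning. Named items are CDKN1A, CPNE5, anchors on them, the 6 other window anchors and 12 window loops with the most PETs, the 3 longest CDKN1A loops with 10 or more PETs, and the 3 most similar anchors; others were chosen after their values were seen. The members and lists were chosen with earlier results of these data known. A planned list of other cell cycle genes was not placed, since no hg19 annotation was used here.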

Additional observations from a re-analysis of the deposited data

How the results depend on the processing

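The CDKN1A to CPNE5 and the CPNE5 contacts stayed lower with ARID1A than with H3K27ac at day 3 under every alternative that gave a value; with the deposited value of 0.01 or less, no ARID1A loop joined both genes and no value was given. Scaled by loops between anchors called in both groups, the log2 ratio of ARID1A to H3K27ac was 0.08 for the window and 0.01 for CDKN1A, against -0.57 and -0.64 as reported; with 10 kb added on both sides, CDKN1A gave 0.02. The ratio of window loop numbers was 0.02 after thinning. For H3K27ac at day 3 over day 0, the window's log2 ratio was 1.98 with that scaling, 2.16 with the deposited value of 0.01 or less, 1.60 with loops of 2 or more PETs and 0.28 with anchors called at both times. In the same order CPNE5 gave 3.25, 3.89, 2.87 and 1.68, and 1.63 with 10 kb added; the thinned window loop numbers gave 1.54.

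Anchors called higher numbered 6 over all consensus regions and 0 with similar widths, and anchors called lower 3 with DESeq2, 0 with similar widths (edgeR, also 0 at an unadjusted p under 0.05) and 2 in fixed 10 kb bins. Leaving out 1 library gave 3 to 5 anchors called lower, 2 to 4 loops called higher and 3 to 4 loops called lower. Loops called higher numbered 3 with DESeq2, 0 with no filter, 0 with similar widths and 19 over all regions. Loops called lower numbered 3 with DESeq2, 0 with no filter, 0 with similar widths, 24 over all regions, 17 with the deposited value of 0.01 or less and 6 in fixed bins. Over all loops 43.8% of calls were higher with ARID1A, and 58.8% with DESeq2, which gave 6593 of the loops no adjusted p. Over all consensus regions the median anchor log2 fold change was 0.70, against -0.05 as reported.

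The labels do not say whether replicate numbers pair the libraries. The differences between replicates 1 and 2 correlated at r = 0.0140 over 9160 anchors between the antibodies, which cannot show whether they were paired. With the replicate block 5 loops were called higher and 4 lower.

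Sign changes among named regions were as follows. The anchor at 36511971 gave -0.21 to 0.44 with 1 library left out and -0.19 over all regions; the CPNE5 anchors gave 0.15 and 0.13 with similar widths. The loop between the CPNE5 anchors, -0.02 as reported, gave -0.53 to 0.13 with 1 library left out, 0.05 without TMM, 0.32 with similar widths and 0.02 with the deposited value. Loops to 37054171 gave 0.05 from the 5′ part of CPNE5 with the deposited value and, with 1 library left out, -2.10 to 0.10 from its middle and -5.74 to 0.28 from CDKN1A. The loop from the 5′ part of CPNE5 to 36852299 gave -0.72 to 0.07 with 1 library left out and 0.19 with similar widths. The cause of these changes was not tested.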
